A study of Mus musculus with 21 samples.

Results

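The protocadherins on the array, members of the cadherin superfamily of calcium-dependent adhesion proteins, were compared between cystatin B knockout (Cstb-/-, KO) and wild type (WT) mice. Every probe set whose single gene symbol starts with Pcdh was taken. This gave 62 probe sets for 35 genes, out of 45037 probe sets tested and 18193 genes on the array. The beta cluster held 28 probe sets for 22 genes, the non-clustered genes held 33 probe sets for 12 genes (Pcdh1, Pcdh7 to Pcdh10, Pcdh11x, Pcdh12, Pcdh15 and Pcdh17 to Pcdh20), and the remaining probe set was for Pcdhgc4, a gamma cluster gene. Another 6 probe sets carried 9 or 14 alpha cluster symbols each and were not counted as members.

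Clustered protocadherins lie in tandem on 1 chromosome, and each neuron is known to use only some of them, chosen largely at the promoter through CTCF and cohesin, so that neighbouring cells carry different adhesion codes. Unlike the alpha and gamma genes, the beta genes do not splice to a shared constant region, and each is a gene of its own. Non-clustered protocadherins, most of them of the delta group, act in axon growth, synapse remodelling and cell sorting, partly through the WAVE complex that drives actin assembly. Cystatin B is an inhibitor of cysteine proteases, and its loss causes progressive myoclonus epilepsy in humans.

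RNA from 21 arrays (Affymetrix mouse expression arrays) covered 3 experiments on the 129SvJ background. Cerebellum at postnatal day 7 (P7) came from 4 Cstb-/- mice and 4 wild type mice, and cerebellum at postnatal day 30 (P30) from 3 Cstb-/- mice and 3 wild type mice. Granule cell cultures, labelled P5+2 DIV, were made from cerebella of 5-day-old pups with the meninges removed and were kept for 2 days in vitro, with AraC added against dividing glia, and gave 3 Cstb-/- cultures and 4 wild type cultures. Of the cultures, Cstb-/- array 1 and wild type arrays 4 and 7 were labelled male and the others female. Sex was not used in the culture fits. The knockout is constitutive, so all cells of a Cstb-/- mouse lack the gene.

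All values are log2 signals that the authors had centred on each probe set's median within an experiment. Levels were therefore not kept, only differences between arrays of 1 experiment could be read, and neither the level of one gene against another nor the presence of tissue markers could be checked. Values are given below relative to the wild type mean of the experiment, with Cstb-/- arrays numbered as in the labels. A probe set was called when the fold was at least 1.3 and the limma p, adjusted by Benjamini-Hochberg over all 45037 probe sets, was below 0.05 in cerebellum or 0.01 in the cultures. Counts at an unadjusted limma p below 0.05, and of probe sets whose Cstb-/- and wild type arrays did not overlap, are descriptions beside the same counts over all probe sets. In bulk RNA, fewer cells of a type and less RNA per cell cannot be told apart.

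Cstb itself was lower in Cstb-/- samples of every experiment. Its 2 probe sets differed by -3.10 and -2.31 (log2) at P7, by -2.70 and -2.77 at P30, and by -2.08 and -1.86 in the cultures, and all 6 differences were called. Several marker lists moved with genotype. At P7, choroid plexus markers averaged -2.89 to -0.38 on the Cstb-/- arrays and -0.23 to 0.17 on the wild type arrays, with 0 of 16 probe sets called. Also at P7, oligodendrocyte markers averaged 0.30 to 0.69 on the Cstb-/- arrays and -0.20 to 0.18 on the wild type arrays, and granule neuron markers 0.11 to 0.33 on the Cstb-/- arrays and -0.09 to 0.10 on the wild type arrays. Interneuron markers were higher at 10 of 10 probe sets and meningeal fibroblast markers lower at 16 of 18, with 0 called in any of these lists. At P30, 9 of 16 microglia probe sets were called higher, and the list averaged 0.93 to 1.17 on the Cstb-/- arrays and -0.16 to 0.13 on the wild type arrays. Of 26 astrocyte and Bergmann glia probe sets, 3 were called higher at P30, all for Gfap. In the cultures, 11 of 18 meningeal fibroblast probe sets were called higher, with array averages of 1.43 to 1.54 in Cstb-/- and -0.07 to 0.10 in wild type cultures, and 11 of 16 mitosis probe sets were called higher. Among the P7 arrays, the spread over all probe sets was widest on Cstb-/- array 5 (SD 0.23) and wild type array 3 (SD 0.22), which are also the only Cstb-/- array labelled female and the only wild type array labelled male at P7. On that Cstb-/- array the 3 probe sets for 18S ribosomal RNA averaged 3.39 log2 units on the authors' centred scale, against -0.40 to 0.21 on the other Cstb-/- arrays and -0.31 to 0.64 on the wild type arrays.

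In P7 cerebellum, 0 of 62 protocadherin probe sets were called, where 0 of all probe sets (0%) were called higher and 3 (0.00666%) lower, 2 of these for Cstb. Low values were seen in the beta cluster and also, as described below, among the non-clustered genes. Of its 28 probe sets, 7 (25%) were lower at an unadjusted p below 0.05 and 0 were higher, where 4.99% of all probe sets were lower and 4.47% higher. The 7 probe sets belonged to 6 genes, Pcdhb3, Pcdhb16, Pcdhb17, Pcdhb20, Pcdhb21 and Pcdhb22, and their differences ran from -0.56 to -0.43. The other 21 beta probe sets ran from -0.23 to 0.10, with a median of 0.01, and the median over the whole cluster was -0.03, beside 0.01 over all probe sets. Pcdhb16, Pcdhb17 and Pcdhb22 had already been singled out by the study from these arrays, so their direction here is not independent evidence.

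The low probe sets lay towards the end of the cluster. In the order of the genes on chromosome 18, 5 of the 6 genes were among the last 7. For Pcdhb16 to Pcdhb22, a division made after the values were seen, 8 of 10 probe sets were lower and the median was -0.43, whereas for Pcdhb1 to Pcdhb15, 9 of 18 were lower and the median was 0.01. Pcdhb18 (0.06) and Pcdhb19 (-0.23), which lie between the low genes, did not pass the unadjusted test, and Pcdhb3 was the only low gene in the first 15.

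**Figure D1:**
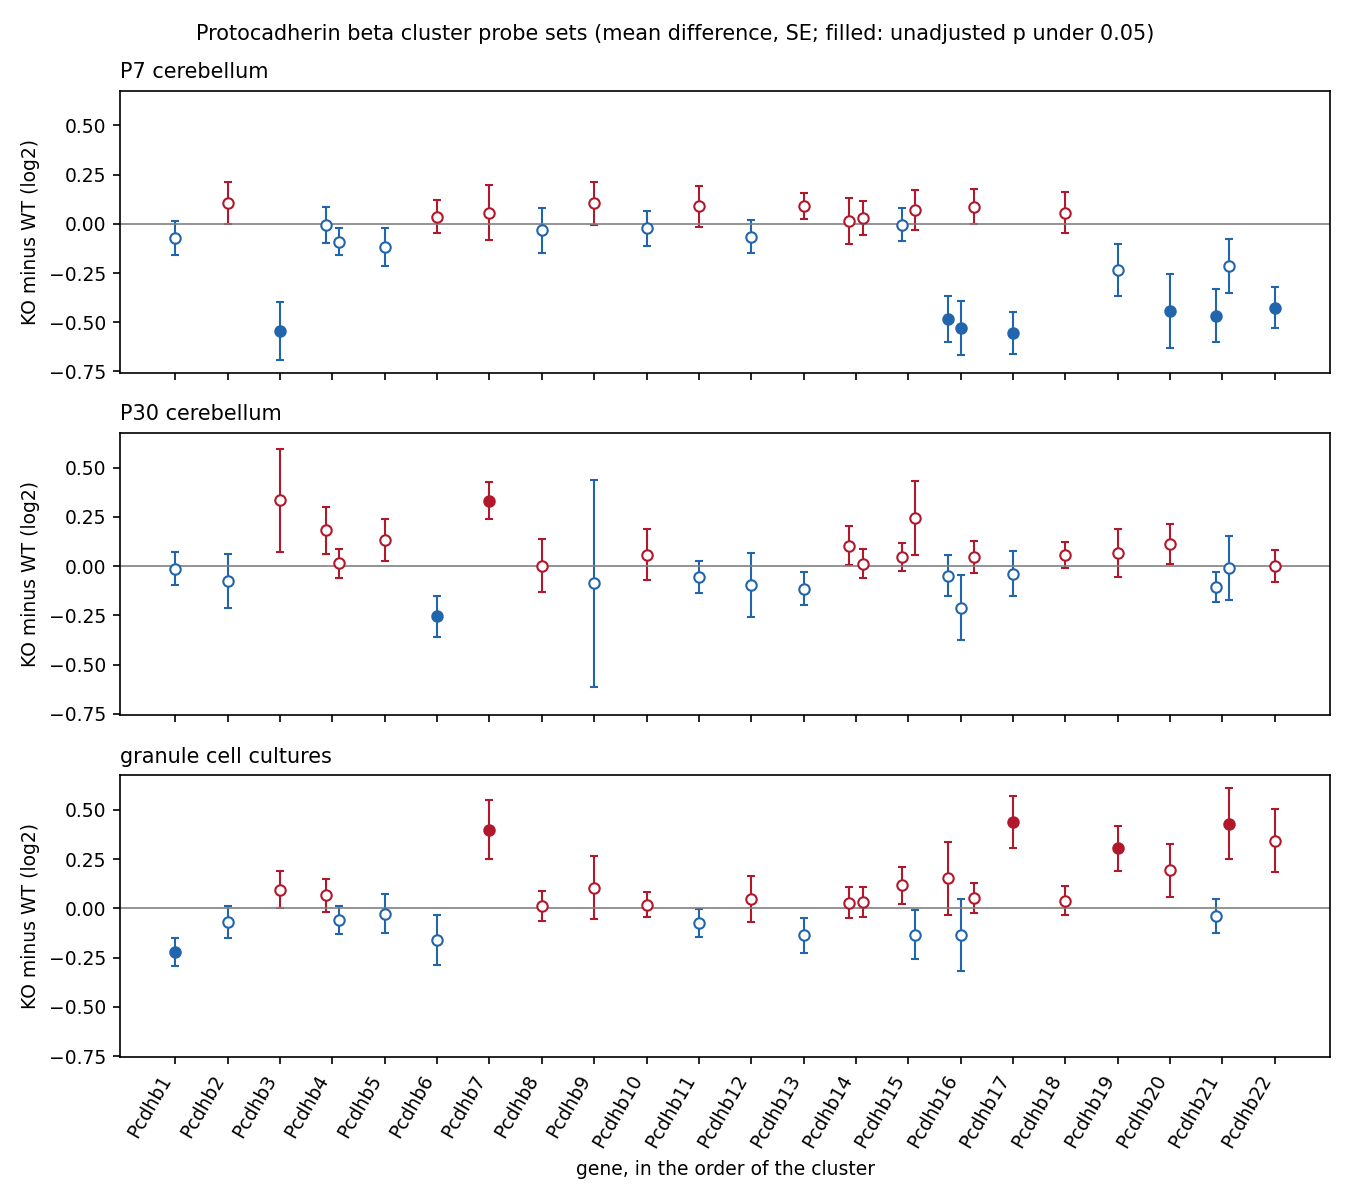
Difference between Cstb-/- (KO) and wild type (WT) arrays (log2, vertical axis, with its standard error) for the 28 beta cluster probe sets, placed in gene order along the horizontal axis, in P7 cerebellum, P30 cerebellum and granule cell cultures. Red points are higher and blue points lower in KO, and filled points had an unadjusted p below 0.05; at P7 the 7 filled points lie between -0.56 and -0.43, 6 of them from Pcdhb16 onwards, and in the cultures Pcdhb17 lies at 0.44.

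Pcdhb17 gave the largest difference. Its signal was -0.68, -0.28, -0.46 and -0.79 on Cstb-/- arrays 1, 2, 3 and 5, against -0.06, -0.03, 0.11 and -0.02 on wild type arrays 1 to 4. The arrays of the genotypes did not overlap, and the difference was -0.56 ± 0.11 (SE, 4 arrays each, limma adjusted p = 0.21). Without overlap between genotypes were 3 beta probe sets at P7, all lower, where 2.84% of all probe sets were lower in this way and 2.8% higher.

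Pcdhb16 was measured by 3 probe sets that disagreed. Probe set 1441358_at read -0.59, -0.16, -0.53 and -0.66 on the Cstb-/- arrays, against -0.10, -0.06, 0.25 and -0.10 on the wild type arrays, a difference of -0.48 ± 0.12 (SE, adjusted p = 0.29) with no overlap. Probe set 1441994_at differed by -0.53 ± 0.14 (SE, adjusted p = 0.33) and overlapped by Cstb-/- array 2, at -0.15. Probe set 1450216_at read -0.05, 0.32, 0.00 and 0.07 in Cstb-/-, against 0.08, -0.01, 0.03 and -0.10 in wild type, a difference of 0.09 ± 0.09 (SE). The gene thus read low on most Cstb-/- arrays at 2 of its 3 probe sets and at wild type values at the third.

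Pcdhb22, the last gene of the cluster, read -0.50, -0.13, -0.54 and -0.53 on the Cstb-/- arrays, against -0.10, -0.03, 0.16 and -0.02 on the wild type arrays. Its arrays did not overlap, with a difference of -0.43 ± 0.10 (SE, adjusted p = 0.29). Pcdhb3 read -0.46, -0.19, -0.52 and -0.996 in Cstb-/-, against -0.22, 0.13, 0.09 and 0.00 in wild type, a difference of -0.54 ± 0.15 (SE, adjusted p = 0.35) with overlap by 1 array of each genotype. Pcdhb20 differed by -0.44 ± 0.19 (SE, adjusted p = 0.51) and 1 of the 2 Pcdhb21 probe sets by -0.47 ± 0.13 (SE, adjusted p = 0.37), the other by -0.21 ± 0.14 (SE). Pcdhb20 had the widest spread of the group, from -0.92 to 0.13 over the Cstb-/- arrays.

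**Figure D2:**
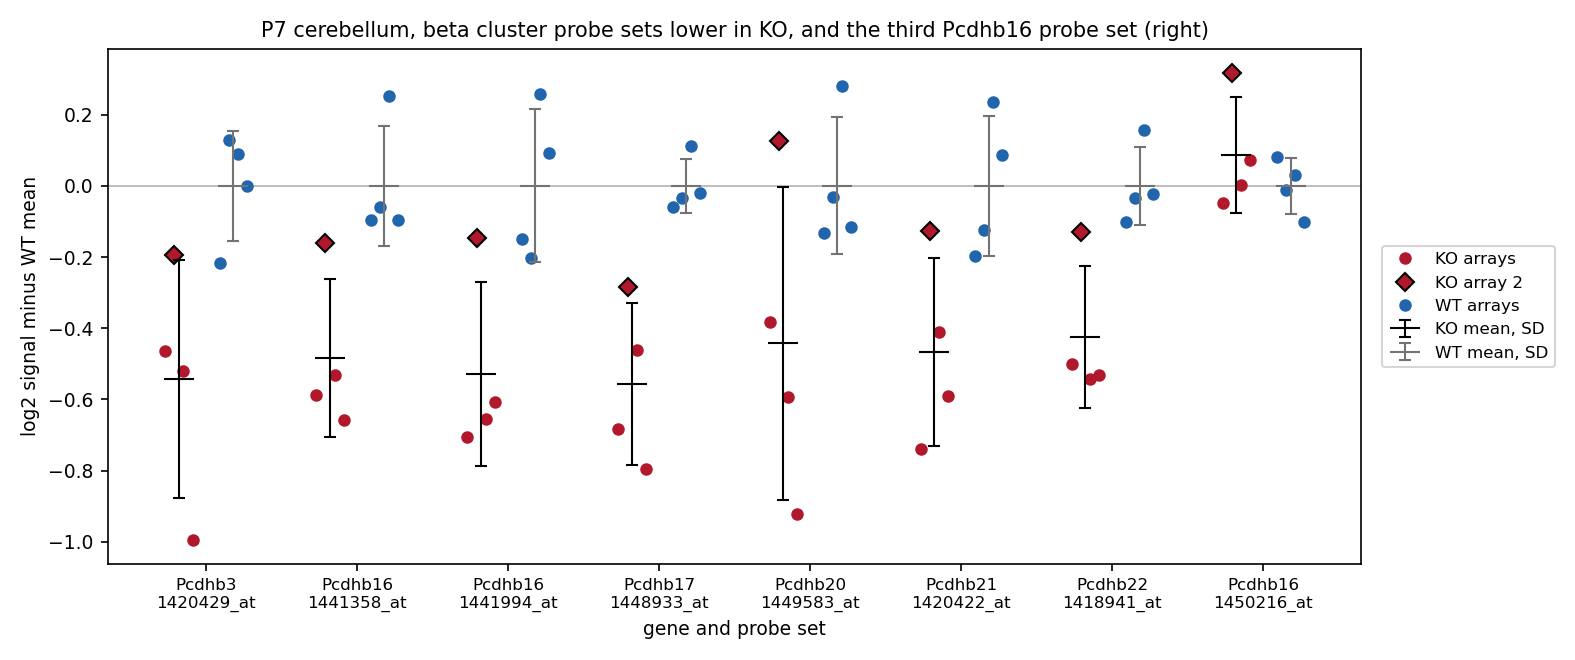
Signal of each P7 array (log2, relative to the wild type mean, vertical axis) for the 7 beta cluster probe sets that were lower in Cstb-/- (KO, red, left of each pair) than in wild type (WT, blue, right of each pair), and for Pcdhb16 probe set 1450216_at at the far right, with mean and SD of 4 arrays. KO array 2, drawn as a diamond, is the highest KO array for all 7 low probe sets, and for Pcdhb17, at -0.28, it is still below the lowest wild type array.

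The same array set the upper end in Cstb-/- throughout. Array 2 was the highest of the 4 Cstb-/- arrays for 7 of 7 of these probe sets, with a median of -0.15, beside -0.59, -0.53 and -0.66 for arrays 1, 3 and 5. In wild type, array 3 was the highest for 6 of 7. The 7 probe sets thus varied together over the arrays and are not independent of each other. The count of low beta probe sets was 9 without Cstb-/- array 2, between 6 and 7 without any other array, and 6 without the arrays of widest spread (Cstb-/- array 5 and wild type array 3) together. With choroid plexus markers as a covariate, which correlated with genotype at r = -0.82 over the 8 arrays, the count was 5, and Pcdhb3 and Pcdhb20 no longer passed. The part of the cell type markers that moved with genotype in these values was not tested further.

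Sex was unevenly spread over the genotypes at P7, with 3 of 4 Cstb-/- and 1 of 4 wild type arrays labelled male. All 7 probe sets were lower within arrays labelled male, by -0.76 to -0.48 (3 Cstb-/-, 1 wild type), and within arrays labelled female, by -0.97 to -0.48 (1 Cstb-/-, 3 wild type). They had been chosen as lower from these same arrays, so the shared direction is not a separate test. Each comparison also had only 1 array of a genotype, wild type array 3 among males and Cstb-/- array 5 among females. With labelled sex as a covariate, 10 protocadherin probe sets were called, all lower, where 896 of all probe sets (1.99%) were called lower. These were 6 beta probe sets of 5 genes, among them Pcdhb17 (-0.67, adjusted p = 0.018) and both low Pcdhb16 probe sets (-0.63, adjusted p = 0.025, and -0.64, adjusted p = 0.046), and 4 non-clustered ones, for Pcdh8, Pcdh18 and Pcdh20. The lone female Cstb-/- and the lone male wild type array being the arrays of widest spread, labelled sex and the spread of these arrays cannot be told apart in this fit.

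Among the non-clustered genes at P7, 6 of 33 probe sets (18.2%) were lower at an unadjusted p below 0.05 and 1 (3.03%) was higher, with a median of -0.01. Over all probe sets, 4.99% were lower and 4.47% higher. Without overlap were 3 of the 33 lower and 1 higher, where 2.84% of all probe sets were lower in this way and 2.8% higher. Pcdh18, known to bind the Reelin adaptor Dab1, read -0.20, -0.23, -0.33 and -0.57 at probe set 1422889_at in Cstb-/-, against -0.08, 0.02, 0.14 and -0.08 in wild type, a difference of -0.33 ± 0.09 (SE, adjusted p = 0.36). A second Pcdh18 probe set differed by -0.22 ± 0.09 (SE) and the third by 0.05 ± 0.10 (SE). The first and second were without overlap. Pcdh8, a protocadherin induced by synaptic activity that drives uptake of N-cadherin from the synapse, differed by -0.36 ± 0.14 and -0.35 ± 0.13 (SE, adjusted p = 0.49 and 0.46), with overlap. Pcdh20 differed by -0.26 ± 0.12 (SE) at 1 probe set and by -0.07 ± 0.11 (SE) at the other.

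Pcdh15, part of the tip link of hair cells, was lower without overlap at 1 of 3 probe sets, by -0.29 ± 0.10 (SE, adjusted p = 0.43), and lies on chromosome 10, as does Cstb. Pcdh9 went the other way. Its probe set 1442659_at read 0.52, 0.62, 0.49 and 0.38 in Cstb-/-, against 0.28, 0.20, -0.48 and 0.00 in wild type, a difference of 0.50 ± 0.14 (SE, adjusted p = 0.37) with no overlap, and its other probe sets differed by 0.10 and 0.27. The non-clustered count was less stable than the beta count. It was 3 without Cstb-/- array 5, 3 without wild type array 3, and 0 with choroid plexus markers as a covariate.

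In P30 cerebellum, again 0 of 62 protocadherin probe sets were called, where 0.138% of all probe sets were called higher and 0.00666% lower. The beta cluster no longer had a low group. Of 28 probe sets 16 were higher and 12 lower, with a median of 0.01 beside -0.01 over all probe sets, and at an unadjusted p below 0.05 1 was higher (4.16% of all) and 1 lower (3.55% of all). Pcdhb17 differed by -0.04 ± 0.11, Pcdhb22 by 0.00 ± 0.08 and the 3 Pcdhb16 probe sets by -0.05 ± 0.10, -0.21 ± 0.17 and 0.05 ± 0.08 (SE, 3 arrays each). For Pcdhb17 the Cstb-/- arrays read 0.02, -0.18 and 0.05, against 0.01, -0.22 and 0.21 in wild type. The difference between the P30 and P7 effects of genotype, tested in 1 limma fit over all groups, was not called for any protocadherin probe set at an adjusted p below 0.05, where 0.115% of all probe sets were called positive and 0.00888% negative. For Pcdhb17 that difference was 0.52 ± 0.18 (SE, adjusted p = 0.48).

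The beta probe sets without overlap at P30 were Pcdhb7 and Pcdhb18, both higher, where 6.24% of all probe sets were higher without overlap and 6.25% lower. Pcdhb7 read 0.30, 0.29 and 0.41 in Cstb-/-, against -0.18, 0.03 and 0.15 in wild type, a difference of 0.33 ± 0.09 (SE, adjusted p = 0.44), and Pcdhb18 differed by 0.06 ± 0.07 (SE). Pcdhb9 showed the widest scatter, at 0.20, -1.54 and 1.08 on the Cstb-/- arrays, against -0.22, 0.24 and -0.02 in wild type.

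Non-clustered protocadherins were mostly on the high side at P30. Of 33 probe sets 25 were higher, with a median of 0.18, where 21154 of all 45037 were higher, with a median of -0.01. At an unadjusted p below 0.05, 6 (18.2%) were higher and 2 (6.06%) lower, where 4.16% of all probe sets were higher and 3.55% lower. Pcdh10, which recruits the WAVE complex to growing axons, supplied 4 of these 6. All 6 of its probe sets were higher, by 0.11 to 0.56. At probe set 1425563_s_at the Cstb-/- arrays read 0.39, 0.30 and 0.47, against -0.06, -0.12 and 0.18 in wild type, a difference of 0.39 ± 0.10 (SE, adjusted p = 0.34) with no overlap. At probe set 1442565_at they read 0.15, 0.17 and 0.30, against 0.11, -0.09 and -0.02, and at 1421311_at 0.16, 0.10 and 0.08, against -0.05, 0.01 and 0.04. These 3 probe sets were without overlap, and the others overlapped by 1 or more arrays.

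**Figure D3:**
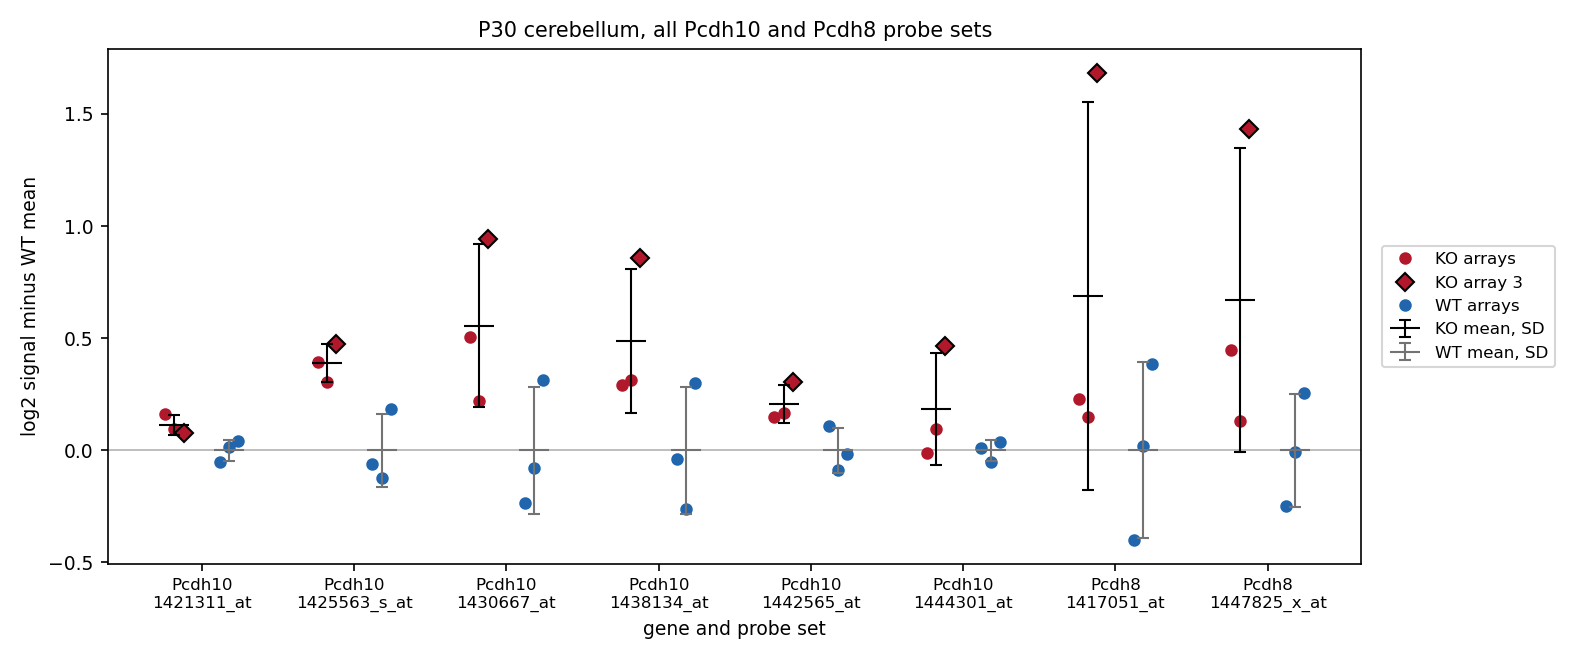
Signal of each P30 array (log2, relative to the wild type mean, vertical axis) for the 6 Pcdh10 and 2 Pcdh8 probe sets, with Cstb-/- arrays (KO, red) left of wild type arrays (WT, blue) and mean and SD of 3 arrays. KO array 3, drawn as a diamond, lies at 1.68 and 1.43 for Pcdh8, while the other KO arrays lie at 0.13 to 0.45, and all 6 Pcdh10 means are above 0.

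Pcdh8 gave the largest P30 differences, 0.69 ± 0.37 and 0.67 ± 0.29 (SE, adjusted p = 0.71 and 0.64), but they rested on Cstb-/- array 3, without which they were 0.19 and 0.29. Its first probe set read 0.23, 0.15 and 1.68 in Cstb-/-, against -0.40, 0.02 and 0.38 in wild type. That array was the highest of all 6 arrays for 22 of the 33 non-clustered probe sets, with a median of 0.37, beside 0.10 and 0.05 for Cstb-/- arrays 1 and 2. Without it 22 of 33 probe sets were higher, with a median of 0.08. At an unadjusted p below 0.05, 1 rather than 6 was higher, Pcdh10 1425563_s_at (0.35 ± 0.11, SE), where 3.6% of all probe sets were higher. The count was 15 without Cstb-/- array 2 and 3 without wild type array 1. Pcdh18 (1430427_a_at, 0.30 ± 0.10, SE) and Pcdh15 (1444317_at, 0.18 ± 0.08, SE) were also higher without overlap. In all, 5 of the 33 were higher and 2 lower without overlap, where 6.24% of all probe sets were higher and 6.25% lower in this way. On the low side without overlap were Pcdh1, at -0.23 ± 0.09 (SE, adjusted p = 0.59), and 1 of 3 probe sets of Pcdh12, a protocadherin of blood vessels, at -0.19 ± 0.08 (SE, adjusted p = 0.64). Cstb-/- array 1 is labelled female and the other 5 P30 arrays male, while the study's methods describe males only at this age, and sex was not used in these fits. Microglia markers were higher on all 3 Cstb-/- arrays, by 0.93 to 1.17. Astrocyte and Bergmann glia markers averaged 0.34 to 0.42 on the Cstb-/- arrays and -0.006 to 0.01 on the wild type arrays. Choroid plexus markers averaged -2.92, 0.75 and -2.77 on Cstb-/- arrays 1, 2 and 3, against -0.69 to 0.72 on the wild type arrays. The part of these marker lists in the protocadherin values was not tested.

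In granule cell cultures, 5 protocadherin probe sets of 4 non-clustered genes were called, all higher. They were 5 of 33 non-clustered probe sets, beside 2.07% of all probe sets called higher and 0.469% called lower. The unpaired, equal-variance test of the study's methods, corrected over all probe sets, called 0 of them. Cstb-/- cultures had more Pcdh8, Pcdh20, Pcdh19 and Pcdh18 signal, 2.41-fold, 1.85-fold, 1.73-fold and 1.54-fold at the called probe set of largest difference. Their promoters are shown because these are the protocadherins that rose in culture. Each line is the 250 bases before the RefSeq start (GRCm38.p6) on the gene's own strand, with motif matches in capitals. The motifs searched on both strands were the GC box (GGGCGG), the TATA box (TATAAA), the cAMP response element (TGACGTCA) and the E-box (CANNTG).

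Pcdh8: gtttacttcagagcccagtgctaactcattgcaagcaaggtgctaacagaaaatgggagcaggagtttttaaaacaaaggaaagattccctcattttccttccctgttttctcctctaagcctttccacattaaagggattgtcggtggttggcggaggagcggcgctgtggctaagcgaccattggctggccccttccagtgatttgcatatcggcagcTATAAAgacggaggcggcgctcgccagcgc
Pcdh20: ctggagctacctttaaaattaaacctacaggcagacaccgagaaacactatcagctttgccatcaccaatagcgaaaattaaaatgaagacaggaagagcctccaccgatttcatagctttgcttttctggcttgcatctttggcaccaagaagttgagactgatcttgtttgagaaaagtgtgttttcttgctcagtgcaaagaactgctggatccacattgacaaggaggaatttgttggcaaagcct
Pcdh19: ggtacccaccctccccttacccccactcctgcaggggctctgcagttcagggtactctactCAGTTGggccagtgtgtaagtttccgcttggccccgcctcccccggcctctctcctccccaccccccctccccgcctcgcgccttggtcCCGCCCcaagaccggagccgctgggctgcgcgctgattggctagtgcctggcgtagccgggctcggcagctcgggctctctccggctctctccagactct
Pcdh18: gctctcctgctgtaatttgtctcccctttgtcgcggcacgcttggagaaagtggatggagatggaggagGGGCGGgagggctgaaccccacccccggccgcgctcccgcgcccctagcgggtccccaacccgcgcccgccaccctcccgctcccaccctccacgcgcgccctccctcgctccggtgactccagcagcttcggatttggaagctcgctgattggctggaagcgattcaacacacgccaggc

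The Pcdh8 window (chr14:79771313-79771562, minus strand, 51.2% GC) held a TATA box and no other match. The Pcdh20 window (chr14:88471397-88471646, minus strand, 42.4% GC) held no match. The Pcdh19 window (chrX:133688994-133689243, minus strand, 69.2% GC) held a GC box and an E-box, and the Pcdh18 window (chr3:49757317-49757566, minus strand, 68.0% GC) a GC box. Of 32851 RefSeq promoter windows of the same length, 32.7% held the GC box, 12.4% the TATA box, 1.5% the cAMP response element and 66.2% the E-box, and the median GC was 52.4%. No motif was shared by all 4 windows.

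Pcdh8 rose most. At probe set 1417051_at the Cstb-/- cultures read 1.22, 1.09 and 1.499, against 0.20, 0.09, -0.17 and -0.12 in wild type cultures 4, 5, 7 and 8, a difference of 1.27 ± 0.13 (SE, adjusted p = 0.0013). Its second probe set read 1.16, 0.68 and 0.99 in Cstb-/-, against 0.09, -0.05, -0.01 and -0.03 in wild type, a difference of 0.94 ± 0.11 (SE, adjusted p = 0.0028). All Cstb-/- values at both probe sets were at least 0.68, well above the highest wild type value of 0.20.

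Pcdh20, which lies on chromosome 14 with Pcdh8, Pcdh9 and Pcdh17, read 0.83, 0.94 and 0.90 at probe set 1424701_at in Cstb-/-, against 0.13, -0.05, -0.21 and 0.14 in wild type, a difference of 0.89 ± 0.10 (SE, adjusted p = 0.0021). Its other probe set differed by 0.30 ± 0.11 (SE, adjusted p = 0.11) and overlapped. Pcdh19, the X-linked gene behind a form of epilepsy in humans, read 0.90, 0.57 and 0.91 at probe set 1437360_at in Cstb-/-, against -0.07, -0.05, 0.09 and 0.03 in wild type, a difference of 0.79 ± 0.10 (SE, adjusted p = 0.0037). Its other probe sets differed by 0.31 ± 0.13 and 0.03 ± 0.07 (SE).

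Pcdh18 read 0.74, 0.66 and 0.45 at probe set 1422889_at in Cstb-/-, against 0.01, -0.02, 0.03 and -0.02 in wild type, a difference of 0.62 ± 0.08 (SE, adjusted p = 0.0046). Its other 2 probe sets differed by 0.33 ± 0.09 (SE, adjusted p = 0.056) and 0.30 ± 0.08 (SE, adjusted p = 0.041), also without overlap. Every probe set of Pcdh8 and Pcdh18 was thus without overlap between genotypes, while Pcdh19 and Pcdh20 were uneven over their probe sets.

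**Figure D4:**
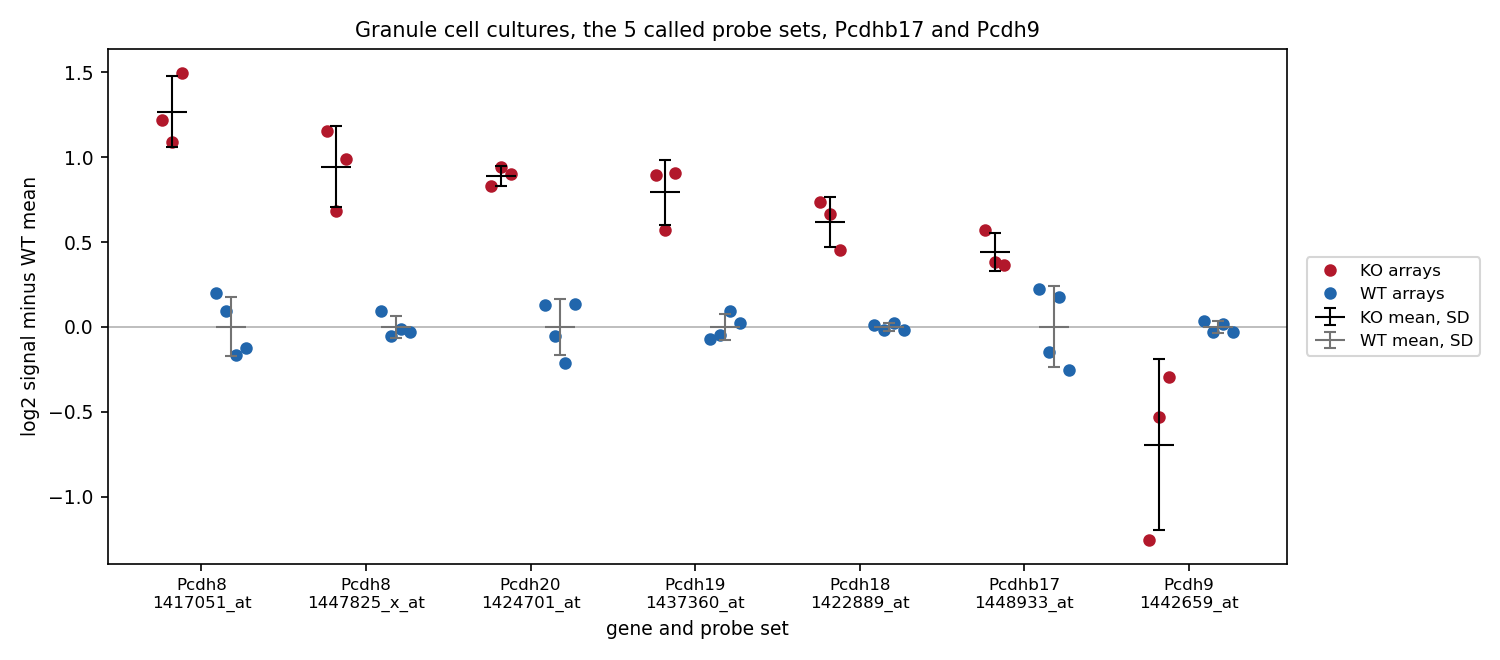
Signal of each granule cell culture array (log2, relative to the wild type mean, vertical axis) for the 5 called probe sets of Pcdh8, Pcdh20, Pcdh19 and Pcdh18, for Pcdhb17 and for Pcdh9 1442659_at, with Cstb-/- arrays (KO, red, n = 3) left of wild type arrays (WT, blue, n = 4) and mean and SD. The genotypes do not overlap at any of the 7 probe sets; KO lies at 1.09 to 1.499 for Pcdh8 1417051_at and at -1.26 to -0.29 for Pcdh9.

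These calls were sensitive to single arrays. Pcdh8 1417051_at was called in all 7 fits that each left out 1 array, Pcdh20 in 4, Pcdh18 and the second Pcdh8 probe set in 2, and Pcdh19 in 1, and each of the 5 had an adjusted p below 0.05 in all 7, the highest being 0.024. The number called was 1 without Cstb-/- array 1 or wild type array 5, 2 without Cstb-/- array 3, wild type array 7 or wild type array 8, 3 without wild type array 4 and 6 without Cstb-/- array 2, while the count over all probe sets went between 302 and 2685. Meningeal fibroblast markers averaged 1.43 to 1.54 on the Cstb-/- arrays and -0.07 to 0.10 on the wild type arrays, and followed genotype almost exactly (r = 0.997 over 7 arrays). With that average as a covariate, 0 protocadherin probe sets were called, but genotype and the marker average cannot be told apart in these arrays. Mitosis markers followed genotype about as closely (r = 0.996). Granule cell precursor markers averaged 0.30 to 0.49 on the Cstb-/- arrays and -0.06 to 0.05 on the wild type arrays. For astrocyte and Bergmann glia markers it was 0.21 to 0.48 and -0.09 to 0.18. The part of these other lists in the calls was not tested.

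Of the 33 non-clustered probe sets in the cultures, 10 (30.3%) were higher at an unadjusted p below 0.05 and 2 (6.06%) lower, where 18.3% of all probe sets were higher and 13.3% lower, and the median was 0.15, beside -0.02 over all probe sets. Without overlap were 9 higher and 1 lower, where 13.4% of all probe sets were higher and 9.33% lower in this way. Pcdh10 was higher without overlap at probe set 1430667_at, which read 0.67, 0.48 and 0.62 in Cstb-/-, against 0.21, -0.51, 0.11 and 0.20 in wild type, a difference of 0.59 ± 0.17 (SE, adjusted p = 0.067). Its other 5 probe sets ran from -0.19 to 0.36. Pcdh9, a delta group gene, was lower at probe set 1442659_at, with -1.26, -0.53 and -0.29 in Cstb-/-, against 0.04, -0.03, 0.02 and -0.03 in wild type, a difference of -0.69 ± 0.20 (SE, adjusted p = 0.062), and its other probe sets differed by 0.31 ± 0.20 and -0.28 ± 0.27 (SE). Its 3 probe sets therefore did not share a direction. Pcdh1 differed by -0.32 ± 0.10 (SE, adjusted p = 0.081).

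**Figure D5:**
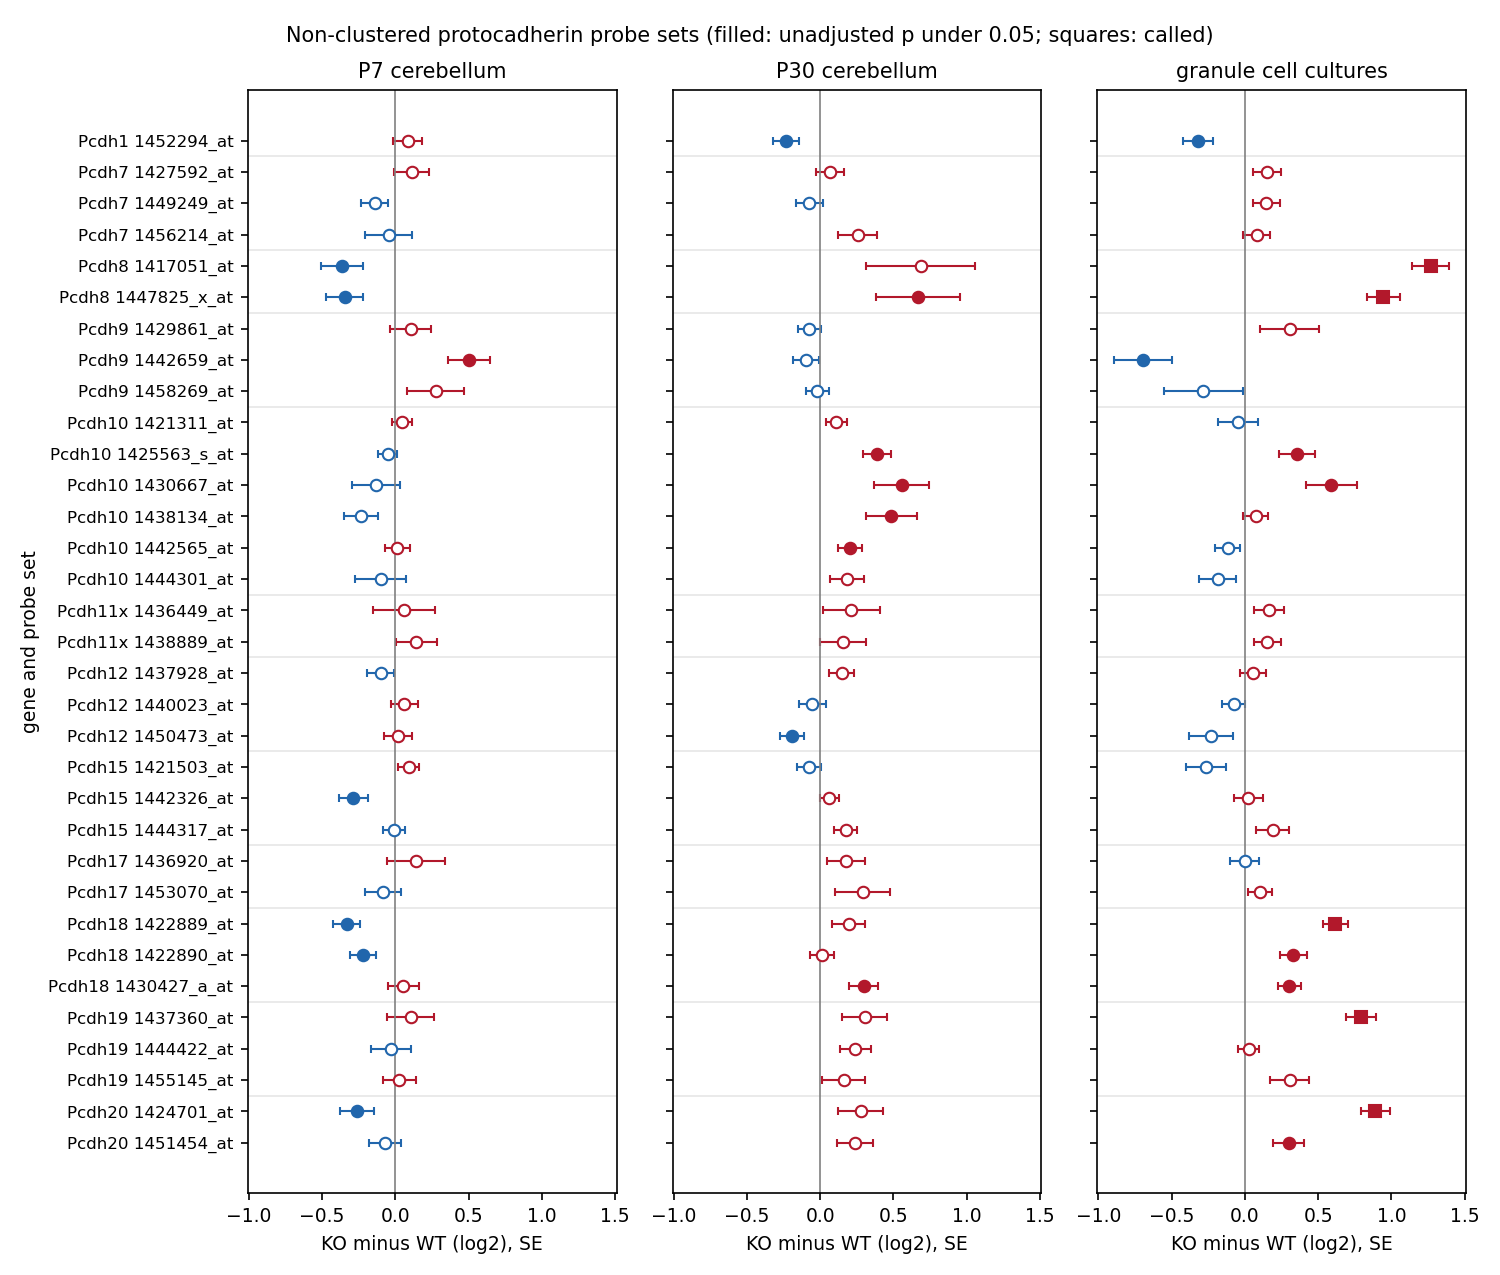
Difference between Cstb-/- (KO) and wild type (WT) arrays (log2, horizontal axis, with its standard error) for the 33 non-clustered protocadherin probe sets, 1 per row, in P7 cerebellum, P30 cerebellum and granule cell cultures. Red points are higher and blue points lower in KO, filled points had an unadjusted p below 0.05, and the 5 squares, all in the cultures, were called; Pcdh8 lies at -0.36 and -0.35 at P7, at 0.69 and 0.67 at P30 and at 1.27 and 0.94 in the cultures.

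In the beta cluster, 0 of 28 probe sets were called in the cultures, and the median was 0.04. Without overlap were 2 higher and 1 lower, where 13.4% of all probe sets were higher and 9.33% lower in this way. At an unadjusted p below 0.05, 4 (14.3%) were higher and 1 (3.57%) lower, where 18.3% of all probe sets were higher and 13.3% lower. The higher count was 1 without Cstb-/- array 3 and 2 without Cstb-/- array 1 or wild type array 5. Pcdhb17 read 0.57, 0.39 and 0.37 in Cstb-/-, against 0.23, -0.15, 0.18 and -0.25 in wild type, a difference of 0.44 ± 0.13 (SE, adjusted p = 0.070) with no overlap. Pcdhb22 differed by 0.34 ± 0.16 (SE) and the 3 Pcdhb16 probe sets by 0.15 ± 0.19, -0.14 ± 0.18 and 0.05 ± 0.08 (SE). Pcdhb20, at 0.17, 0.23 and 0.18 against 0.15, -0.38, 0.10 and 0.13, was higher without overlap, and Pcdhb1 was lower without overlap, at -0.26, -0.14 and -0.27 against -0.02, -0.02, -0.04 and 0.08. For Pcdhb16 to Pcdhb22, 8 of 10 probe sets were higher, with a median of 0.17, and for Pcdhb1 to Pcdhb15 10 of 18, with a median of 0.02. Tied values, several arrays sharing a value to the digits given, occurred in 34 of 62 protocadherin probe sets in the cultures and in 51.3% of all probe sets.

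The effect of genotype in the cultures was then set against that in P7 cerebellum in 1 limma fit over all 6 groups. Of the 62 protocadherin probe sets, 11 had a larger value in the cultures and 2 a smaller one at an adjusted p below 0.05. Over all probe sets, 13% were positive and 7.32% negative. In the beta cluster, Pcdhb17 differed by 1.00 ± 0.18 (SE, adjusted p = 0.00051), being 0.44 in the cultures and -0.56 at P7, and Pcdhb22 by 0.77 ± 0.18 (SE, adjusted p = 0.0044). Pcdhb16 1441358_at differed by 0.64 ± 0.21 (SE, adjusted p = 0.038) and Pcdhb19 by 0.54 ± 0.19 (SE, adjusted p = 0.049). Both lost the call in 9 of 16 alternatives, with adjusted p of up to 0.078 and 0.11.

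Among the non-clustered genes the differences were 1.63 ± 0.36 and 1.29 ± 0.28 for Pcdh8, 1.15 ± 0.19 for Pcdh20, 0.95 ± 0.14 and 0.55 ± 0.12 for Pcdh18, 0.69 ± 0.22 for Pcdh19 and 0.41 ± 0.13 for Pcdh10 1425563_s_at (SE, limma adjusted p from 9.2e-05 to 0.034). On the negative side were Pcdh9 1442659_at, at -1.20 ± 0.23 (SE, adjusted p = 0.0012), and Pcdh1, at -0.40 ± 0.14 (SE, adjusted p = 0.048). Pcdh19 lost the call in 7 of 16 alternatives, Pcdh10 in 8 and Pcdh1 in 10, with adjusted p of up to 0.089, 0.093 and 0.12. The probe sets of Pcdh8, Pcdh18 and Pcdh20 called higher in culture were on the low side at P7. Pcdh9 1442659_at was the reverse, high at P7 and low in culture without a call in either. Of the other Pcdh9 probe sets, 1458269_at was at 0.27 at P7 and -0.28 in culture. Pcdh9 1429861_at was higher in both, at 0.10 and 0.31. The number of calls was 8 without P7 wild type array 2, Cstb-/- culture 3 or wild type culture 5, and 9 to 17 without any other array.

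Across the 33 non-clustered probe sets, the differences in the cultures and at P7 had a Pearson correlation of -0.67, those at P30 and at P7 of -0.55, and those in the cultures and at P30 of 0.73, with 27 of 33 of the same sign in the last pair. Over all probe sets these correlations were -0.30, 0.05 and 0.27. In the beta cluster they were -0.37, 0.04 and 0.32 over 28 probe sets. Rank (Spearman) correlations were -0.47, -0.47 and 0.64 for the non-clustered probe sets, and -0.34, -0.06 and 0.36 for the beta cluster. Both P30 correlations of the non-clustered probe sets include Cstb-/- array 3, the highest of 6 arrays for 22 of the 33. The experiments share no arrays, but probe sets of 1 gene are not independent and the 12 non-clustered genes supplied all 33 points, so the correlations are descriptions.

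Pcdhgc4, a gamma cluster gene needed in mice for the survival of cortical interneurons, differed by -0.15 ± 0.14 at P7, -0.11 ± 0.10 at P30 and -0.19 ± 0.14 in the cultures (SE), with overlapping arrays in each.

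Genes that work with protocadherins, and other members of the cadherin superfamily, were read from 6 lists. At P7 and at P30, 0 of their probe sets were called. In the cultures 1 of their 144 probe sets (0.694%) was called higher and 1 lower, beside 2.07% and 0.469% of all probe sets. Cdh11, a classical cadherin of mesenchymal cells, rose by 1.33 (log2, adjusted p = 0.0041), and Fat2, a giant cadherin of cerebellar granule cells that also stands in the granule neuron marker list, fell by 0.62 (adjusted p = 0.0038). The calls in these lists numbered 0 without Cstb-/- array 1 or 3 or wild type array 5, 7 or 8, 4 without wild type array 4 and 10 without Cstb-/- array 2. Of the 33 classical cadherin probe sets 5 were higher and 4 lower at an unadjusted p below 0.05, and of 17 probe sets for large cadherins and calsyntenins 2 were higher and 5 lower, where 18.3% of all probe sets were higher and 13.3% lower. Both called genes had the opposite sign at P7, at -0.38 for Cdh11 (adjusted p = 0.27) and 0.49 for Fat2 (adjusted p = 0.14).

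The lists nearest to protocadherin function held no call in any experiment, and their counts in the cultures are to be read beside the same 18.3% and 13.3% of all probe sets. In the cultures, 7 of 21 WAVE complex and small GTPase probe sets were higher and 1 lower at an unadjusted p below 0.05 (median 0.16), led by the WAVE subunit gene Abi1 (0.57, adjusted p = 0.045). For kinases and signalling partners it was 9 of 24 higher and 1 lower (median 0.09), with Ctnnb1, the gene for beta-catenin, at 0.71, 0.86 and 0.46 (adjusted p = 0.013, 0.016 and 0.025). For regulators of the cluster promoters it was 13 of 37 higher and 2 lower (median 0.11), with the histone methyltransferase gene Setdb1 at 0.59 (adjusted p = 0.023) and the cohesin subunit gene Stag2 at 0.71 (adjusted p = 0.025). For the proteases that cleave protocadherins it was 1 of 12 higher and 4 lower (median -0.06), with the gamma-secretase subunit gene Aph1a at -1.10 (adjusted p = 0.057). At P7, the regulators of the cluster promoters had 2 of 37 probe sets higher and 5 lower at an unadjusted p below 0.05 (median -0.06). Of all probe sets, 4.47% were higher and 4.99% lower. The cohesin subunit genes Rad21, Stag1 and Smc1a were at -0.30, -0.22 and 0.20 (limma adjusted p = 0.43, 0.44 and 0.49). At P30, 1 regulator probe set was higher and 0 were lower (median -0.03). Ctcf was not called in any of the 3 experiments.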

How the data were processed

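Cerebellum at P7 (4 Cstb-/-, 4 wild type) and P30 (3 and 3) and granule cell cultures (3 and 4) were hybridised to 21 Affymetrix arrays, on which read depth does not apply and the number of arrays limits the precision. The deposited values are log2 signals that the authors obtained by RMA in GeneSpring GX (version not given in the sources used here) and centred on the median of each probe set within an experiment. Because of the centring, no filter on low signal and no check of tissue markers by level could be applied. The signals were not renormalised for the main fits.

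Of 45101 probe sets, 64 controls were left out. Of the 45037 tested, 34945 had 1 gene symbol in the platform annotation, 932 several and 9160 none, and all 62 protocadherin probe sets matched a RefSeq gene (GRCm38.p6), used for gene order, chromosome and promoter sequence. Promoter windows were held for 9 of the 35 genes. Each experiment was fitted with limma 3.58.1 (R 4.3.3, lmFit and eBayes) with genotype as the only term, and p-values were adjusted by Benjamini-Hochberg over all probe sets. The thresholds (fold 1.3, adjusted p 0.05 or 0.01) follow the study's methods. The difference of genotype effects came from 1 fit over all 6 groups, at an adjusted p of 0.05. The fits were tested on simulated data first. No pair of arrays held identical values.

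Named are all called probe sets and those without overlap between genotypes, with array values for up to 6 of largest difference per subfamily and experiment, and Pcdhb16, Pcdhb17 and Pcdhb22 throughout. Other members, such as Pcdhb3 and Pcdhb9, are named after their values were seen. Of the related lists, called genes or up to 3 of smallest p are named. The members and the gene lists were chosen with earlier results of these data known. Alternatives were the methods' t-test, array weights, subtraction of each array's median, a replicate block and means over a gene's probe sets. Others were 1 fit over all groups, covariates for marker lists or, at P7 only, labelled sex, and leaving out each array.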

Additional observations from a re-analysis of the deposited data

Results flagged for a closer look

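Among 41 groups of 4 arrays examined, 4 held an array far from the other 3. The cut-off used is passed by about 1 in 20 independent groups by chance. These groups were mostly chosen by their values in the same data and share arrays, so that rate is only a guide. At P7, Pcdhb22 read -0.13 on Cstb-/- array 2, while the other Cstb-/- arrays read -0.54 to -0.50. At P7, Pcdhb16 (1441358_at) read 0.25 on wild type array 3, against -0.10 to -0.06 on the other wild type arrays. In the cultures, wild type array 5 read -0.51 for Pcdh10 (1430667_at), where the others read 0.11 to 0.21, and -0.38 for Pcdhb20, where the others read 0.10 to 0.15.

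By the limma test of the difference itself, the effect of genotype differed between granule cell cultures and P7 cerebellum for 13 of 62 protocadherin probe sets. Over all probe sets, 13% were positive and 7.32% negative in the same test, so the count alone does not set protocadherins apart. The differences (log2, cultures minus P7) were 1.63 and 1.29 for Pcdh8, 1.15 for Pcdh20, 0.95 and 0.55 for Pcdh18, 0.69 for Pcdh19, 0.41 for Pcdh10 (1425563_s_at), 1.00 for Pcdhb17, 0.77 for Pcdhb22, 0.64 for Pcdhb16 (1441358_at), 0.54 for Pcdhb19, -0.40 for Pcdh1 and -1.20 for Pcdh9 (1442659_at, adjusted p = 0.0012). Of these, Pcdh19, Pcdh10, Pcdh1, Pcdhb16 and Pcdhb19 lost the call in 7 to 10 of 16 alternatives, and the other 8 probe sets in 0. Whole tissue and cultures differ in age, in cell makeup and in preparation, which cannot be told apart here.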

How the results depend on the processing

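For P7, 0 protocadherin probe sets were called without any 1 array, 3 by the methods' t-test when only probe sets past the fold were corrected for, and 10 with labelled sex as a covariate. For P30, 1 was called with array weights (Pcdh10). The P30 count of 6 higher non-clustered probe sets was 2 by the methods' t-test, 10 with array weights and 1 to 15 without single arrays. By gene means, which count genes and not probe sets, 1 of the 12 non-clustered genes was higher. For the cultures, 0 were called by the methods' t-test over all probe sets, 0 with fibroblast markers as a covariate and 1 to 6 without single arrays. By gene means, 3 genes were called. With the fibroblast covariate the beta median was -0.20 and 2 non-clustered probe sets were higher, while by gene means 4 non-clustered genes were higher. The difference between cultures and P7 gave 8 to 17 calls without single arrays, against 13 in all arrays.

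Replicate numbers did not pair the arrays: same-numbered Cstb-/- and wild type arrays correlated at 0.01 to 0.17 at P7 and -0.18 to -0.03 at P30, and the cultures share no such design. With the replicate number as a block, the P30 count of higher non-clustered probe sets was 11 and the P7 count of lower beta probe sets was 6.

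Reversed signs were mostly those of small differences. At P7, Pcdhb16 1450216_at was -0.012 with choroid plexus markers as a covariate and -0.31 as the gene's mean. At P30, Pcdhb16 1441358_at was 0.049 and Pcdhb17 0.082 with array weights, and Pcdhb16 1450216_at was -0.072 as the gene's mean. Without single arrays at P30, Pcdhb22 ran from -0.072 to 0.048, Pcdhb17 from -0.15 to 0.066, and Pcdhb16 1441358_at from -0.16 to 0.025 and 1450216_at from -0.0016 to 0.10. In the cultures Pcdhb16 1441358_at ran from -0.030 to 0.26 and 1441994_at from -0.35 to 0.10, which was 0.023 as the gene's mean. With the fibroblast covariate, which nearly equals genotype, other values reversed: Pcdh18 1422889_at was -0.054, Pcdh19 1437360_at -0.43, Pcdh10 1430667_at -1.58, Pcdhb20 -0.79, Pcdhb16 -1.2996 (1441358_at) and 2.72 (1441994_at), and Pcdh9 1442659_at 3.18. Over all alternatives, 852 single values kept direction and side of the threshold, 71 lost a call, 14 gained one and 21 reversed. The cause was not tested.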

Other observations

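The 6 probe sets that carry several alpha cluster symbols each showed little difference between genotypes in cerebellum. In the cultures, 1425613_at, which matches 9 alpha genes, read -0.47, -0.34 and -0.77 in Cstb-/-, against -0.09, 0.01, -0.12 and 0.20 in wild type, without overlap. The difference was -0.53 ± 0.12 (SE, limma adjusted p = 0.033), which missed the threshold of 0.01 used for the cultures, and the other 5 ran from -0.23 to 0.19.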
